A study of Mus musculus with 30 samples.

Results

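The immediate early transcription factors described here are 10 genes chosen by name, namely the EGR factors Egr1, Egr2 and Egr3, the FOS family members Fos, Fosb and Fosl1, the JUN family members Jun and Junb, and the early response genes Ier2 and Ier3. They are 10 of the 49315 genes in the count files, and all 10 are among the 21138 genes with at least 10 reads summed over the 24 bulk RNA sequencing libraries. The rule uses gene names and no measured value, but the genes were chosen with earlier results of these data known. The libraries came from 2 mouse tumor cell lines of C57BL/6 origin in culture, B16F10 melanoma cells and 6694c2 PDAC (pancreatic ductal adenocarcinoma) cells. Each line was exposed for 24 h to vehicle, to IFNγ at 100 ng/mL, to IFNβ at 1000 U/mL or to a STING agonist at 225 μg/mL, with 3 libraries per group. Each tumor type is represented by a single line, so a difference between the lines cannot be told apart from a difference between the tumor types. The study asked how tumor cells themselves respond to the STING agonist. The sources used here do not say whether the 3 libraries of a group were separate cultures, so p-values measure the spread between these libraries, which may be technical.

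Immediate early genes are transcribed within minutes of a signal without new protein synthesis, classically through the ERK kinase cascade, which activates ternary complex factors such as Elk1 bound with serum response factor (SRF), and through CREB. Their RNAs are short-lived, and after a single pulse of growth factor they return towards the starting level within hours. EGR factors bind GC-rich sites through zinc fingers, while FOS and JUN proteins pair through leucine zippers to form the AP-1 factor. All samples here were taken after 24 h of exposure, so the values are levels late in the response and not the early pulse.

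Promoter windows were shown for Fos, Jun and Junb, because these AP-1 genes differed in which treatment moved them. Each window is the 150 bases before the RefSeq transcription start on GRCm38.p6, written 5′ to 3′ along the gene's own strand. RefSeq entries were found for 6 of the 10 genes. The capitals mark TGACG (the core of a CRE, the site bound by CREB and ATF factors), the CRE-like site TGACNTCA, and the TATA box TATAAA. The Fos window lies at chr12:85473740-85473889 on the plus strand, the Jun window at chr4:95052223-95052372 on the minus strand and the Junb window at chr8:84978749-84978898 on the minus strand.
Fos: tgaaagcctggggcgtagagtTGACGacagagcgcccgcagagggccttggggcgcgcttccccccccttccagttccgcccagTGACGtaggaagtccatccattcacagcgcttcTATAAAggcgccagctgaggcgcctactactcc
Jun: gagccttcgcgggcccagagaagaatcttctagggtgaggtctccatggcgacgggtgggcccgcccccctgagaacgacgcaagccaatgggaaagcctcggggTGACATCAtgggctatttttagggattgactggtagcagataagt
Junb: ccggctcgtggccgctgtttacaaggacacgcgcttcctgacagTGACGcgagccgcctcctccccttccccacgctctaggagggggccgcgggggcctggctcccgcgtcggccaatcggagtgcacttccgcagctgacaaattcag

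Motifs were searched on both strands in the 250 bases before the start. Jun held TGACATCA at 45 to 38 bases before its start, a match to TGACNTCA, which 7.49% of all 32851 promoter windows of this length held. Fos held TGACG at 129 to 125 and at 66 to 62 bases before its start, and Junb held it at 106 to 102 bases before its own, against 17.8% of all windows. Fosb held TGACG at 60 to 56 bases and an EGR site (GCGNGGGCG, in 4.7% of all windows) at 50 to 42 bases before its start. A CArG box, the SRF site, was found in windows of Egr2, some of which also held TGACG, and in 1.47% of all windows. Neither the GAS letters TTCNNNGAA (7.02% of all windows) nor the ISRE (2.98%), sites known from interferon-responsive promoters, were found in the windows of the 6 genes. These are matches of letters in 1 window per start and do not measure binding. Bases further upstream were not searched, so a site absent here may lie outside the window.

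Each library held between 15543131 and 32266795 reads on genes. The labelled lines carried their own markers, since the summed level of 11 melanocyte markers was 15720 to 19890 CPM (read counts scaled by TMM-adjusted library size) in B16F10 libraries and 20.7 to 140.5 CPM in 6694c2 libraries. The summed level of 12 ductal epithelial markers was 12900 to 15220 CPM in 6694c2 libraries and 16.5 to 138.4 CPM in B16F10 libraries, with the highest sums, 106 to 138.4 CPM, in those given STING agonist. Transcripts of the other line were therefore estimated from genes at 50 CPM or more in the vehicle libraries of 1 line and under 2% of that in the other. Over 197 such PDAC genes, B16F10 libraries held a median of 0.207% of the PDAC level with vehicle and 0.894% with STING agonist (means, n = 3). Over 117 such B16F10 genes, 6694c2 libraries held 0.606% with vehicle and 0.262% with STING agonist. Low expression of these genes by the line itself would count in the same way, and the source of these reads was not tested. The summed level of blood cell markers (10 of 12 kept) was 19.9 to 66.2 CPM, that of 6 fibroblast markers at most 14.4 CPM and that of endothelial markers (3 of 4 kept) at most 0.700 CPM in any library. Of the interferon-response genes Irf1, Ifit1 and Isg15, all 3 were higher with IFNγ and with IFNβ in both lines and with STING agonist in B16F10 cells, and 1 of 3 (Ifit1) was higher with STING agonist in 6694c2 cells.

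A gene was counted as called when its adjusted p was under 0.05 in the quasi-likelihood test of edgeR, after Benjamini-Hochberg adjustment over all 21138 genes. In B16F10 cells, 2 of the 10 genes rose and 2 fell with IFNγ, where 22.8% of all genes were called. With IFNβ 3 rose and 1 fell, against 24.0% of all genes called, and with STING agonist none rose and 4 fell, against 3.46%. That last count was 2 with total reads, with the filterByExpr minimum and with DESeq2, and 1 to 3 when single libraries were left out. In 6694c2 cells, 3 rose and 1 fell with IFNγ, against 13.5% of all genes, and 5 rose and 1 fell with IFNβ, against 18.2%. With STING agonist none of the 10 was called in 6694c2 cells by edgeR or by DESeq2, against 0.36% of all genes, and 5 of the 10 had an unadjusted edgeR p under 0.05. The median log2 fold change of the 10 genes was 0.32 with IFNβ in B16F10 cells and 0.31 in 6694c2 cells, beside medians over all genes of 0.02 and 0.00. With IFNγ the medians were −0.07 and −0.01, and with STING agonist −0.21 and 0.18, beside 0.00 over all genes in each case. All comparisons within a line share the same 3 vehicle libraries.

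**Figure D1:**
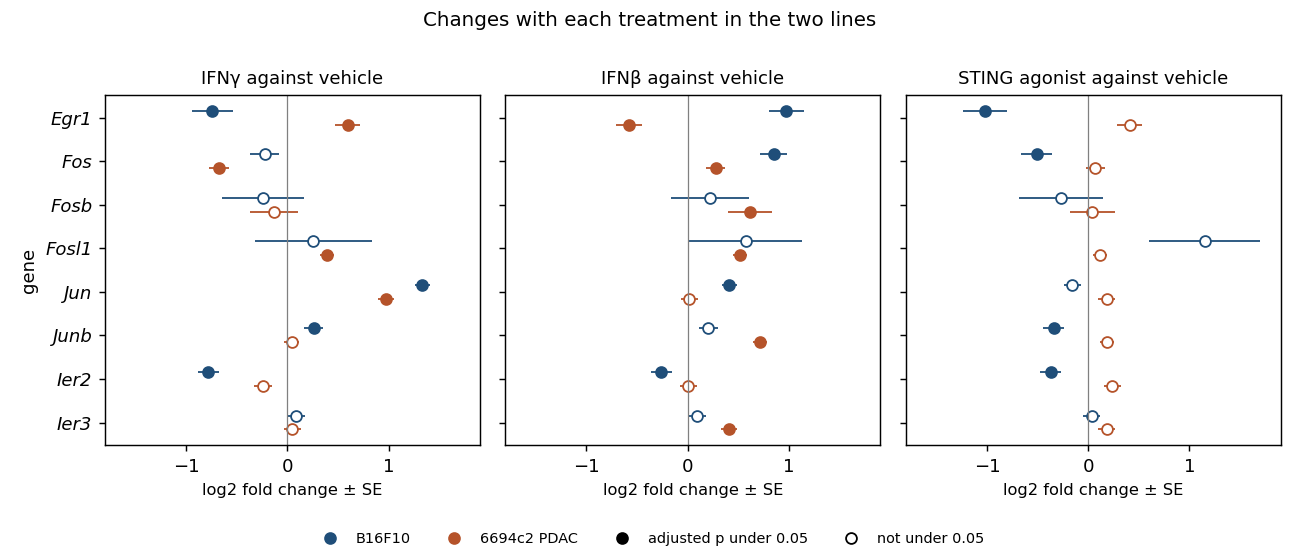
Log2 fold change against vehicle (x axis) with its standard error for 8 genes (y axis) in B16F10 (blue) and 6694c2 PDAC (orange) cells after each treatment, from edgeR fits over the 12 libraries of each line; filled points have an adjusted p under 0.05. Egr1 points lie on opposite sides of 0 in the 2 lines in each panel, while Jun lies to the right in both lines with IFNγ.

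Without treatment, 8 of the 10 genes were higher in 6694c2 PDAC cells than in B16F10 cells and none was lower, where 58.0% of all genes were called in either direction. The median log2 difference of the 10 genes was 1.71, beside −0.01 over all genes. Fosl1, which encodes the AP-1 subunit FRA-1, differed most. It stood at 64.7 ± 1.18 CPM (SD, n = 3) in 6694c2 vehicle libraries and at 0.291 ± 0.0571 CPM in B16F10 vehicle libraries, where it had 5 to 9 reads per library. Its fitted ratio was 216-fold (log2 7.75 ± 0.13 SE, edgeR adjusted p = 1.17e-36). The share of PDAC genes given above, applied to its 6694c2 vehicle level, corresponds to 0.134 CPM in the B16F10 vehicle libraries, and the source of these reads was not tested. Junb stood at 194 ± 4.68 CPM against 17.4 ± 0.923 CPM, an 11.2-fold difference (edgeR adjusted p = 1.08e-30). Egr1 was 6.63-fold and Fos 5.70-fold higher in 6694c2 cells (edgeR adjusted p = 3.57e-16 and 1.54e-19). Fosb, Ier2 and Ier3 were 3.27-fold, 3.26-fold and 3.04-fold higher, with edgeR adjusted p-values of 1.97e-06, 9.41e-21 and 5.68e-18.

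Jun was nearly level between the lines. It stood at 25.2 ± 0.949 CPM in B16F10 and 30.4 ± 2.87 CPM in 6694c2 vehicle libraries, a log2 difference of 0.27 ± 0.08 (SE, edgeR adjusted p = 0.00343). Scaling by total reads instead of TMM moved the median of the fold changes in this comparison by −0.18 on the log2 scale, and the difference of Jun was then 0.09 with an edgeR adjusted p of 0.374. The Jun call was also lost without replicate 1 of the B16F10 vehicle group (0.19, edgeR adjusted p = 0.0635) or of the 6694c2 vehicle group (0.19, edgeR adjusted p = 0.0567). The other 7 higher genes stayed called under that scaling. Per kilobase of exon length, Ier3 was the most abundant of the 10 in B16F10 vehicle libraries at 23.2 ± 1.43 RPKM, above Ier2 at 11.5 ± 0.441 RPKM, Jun at 7.90 ± 0.298 RPKM and Junb at 7.56 ± 0.401 RPKM, and the last pair did not differ beyond their spread. In 6694c2 vehicle libraries Junb led at 84.4 ± 2.03 RPKM, above Ier3 at 70.5 ± 4.76 RPKM, Fosl1 at 37.9 ± 0.690 RPKM and Ier2 at 37.4 ± 1.79 RPKM, where Fosl1 and Ier2 did not differ beyond their spread. Fos stood at 15.2 ± 2.13 RPKM, Jun at 9.53 ± 0.901 RPKM and Egr1 at 5.43 ± 1.04 RPKM in the same libraries.

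Egr1 (ENSMUSG00000038418, chromosome 18, 34859823 to 34864984 on GRCm38) rose with IFNβ in B16F10 cells and fell with it in 6694c2 cells. In B16F10 cells its levels were 2.54, 2.65 and 5.63 CPM with vehicle, 2.13, 1.88 and 2.55 CPM with IFNγ, 6.58, 6.78 and 8.04 CPM with IFNβ, and 1.26, 1.65 and 2.49 CPM with STING agonist, for replicates 1, 2 and 3. Vehicle replicate 3 stood apart from the other 2 vehicle libraries, and all 3 IFNβ libraries were above every vehicle library. Egr1 rose 1.97-fold with IFNβ (log2 0.98 ± 0.17 SE, edgeR adjusted p = 5.25e-07), and without vehicle replicate 3 the log2 change was larger, at 1.47. It fell by 0.74 ± 0.20 on the log2 scale with IFNγ (edgeR adjusted p = 0.00181) and by 1.02 ± 0.21 with STING agonist (edgeR adjusted p = 0.000253). Both of these decreases rested on vehicle replicate 3. Without it the log2 changes were −0.25 with IFNγ (edgeR adjusted p = 0.552) and −0.53 with STING agonist (edgeR adjusted p = 0.359), and neither was called.

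In 6694c2 cells, Egr1 stood at 22.8, 20.7 and 29.6 CPM with vehicle and at 32.2, 33.1 and 43.1 CPM with IFNγ, so the 2 groups did not overlap. With IFNβ it stood at 15.6, 14.8 and 17.2 CPM, below every vehicle library. It rose 1.51-fold with IFNγ (log2 0.60 ± 0.12 SE, edgeR adjusted p = 0.000267) and fell by 0.58 ± 0.13 on the log2 scale with IFNβ (edgeR adjusted p = 0.000527). In edgeR's robust fit both had the same log2 values with adjusted p-values of 0.0833 and 0.0859. With STING agonist Egr1 stood at 32.1, 25.8 and 38.7 CPM, overlapping vehicle, with a log2 change of 0.41 ± 0.12 that was not called (edgeR adjusted p = 0.183). Without 6694c2 vehicle replicate 3, which had the highest vehicle level, that change was 0.58 with an edgeR adjusted p of 0.0263, and without STING agonist replicate 2 it was 0.55 with 0.0252. It was also called with no filter (edgeR adjusted p = 0.00319) and in the fit of only the groups compared (edgeR adjusted p = 0.0434).

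Egr2 and Egr3, the other EGR factors listed, were close to the detection limit. Egr2 had at most 13 reads and Egr3 at most 11 reads in any library, with 0 Egr2 reads in IFNγ replicate 2 of each line and 0 Egr3 reads in B16F10 vehicle replicate 1. A count of 0 allows up to 3 reads, which is 0.148 to 0.172 CPM in these libraries, for counting error only. Neither was called in any comparison under any processing alternative. Their standard errors against vehicle were 0.74 to 1.18 on the log2 scale.

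**Figure D2:**
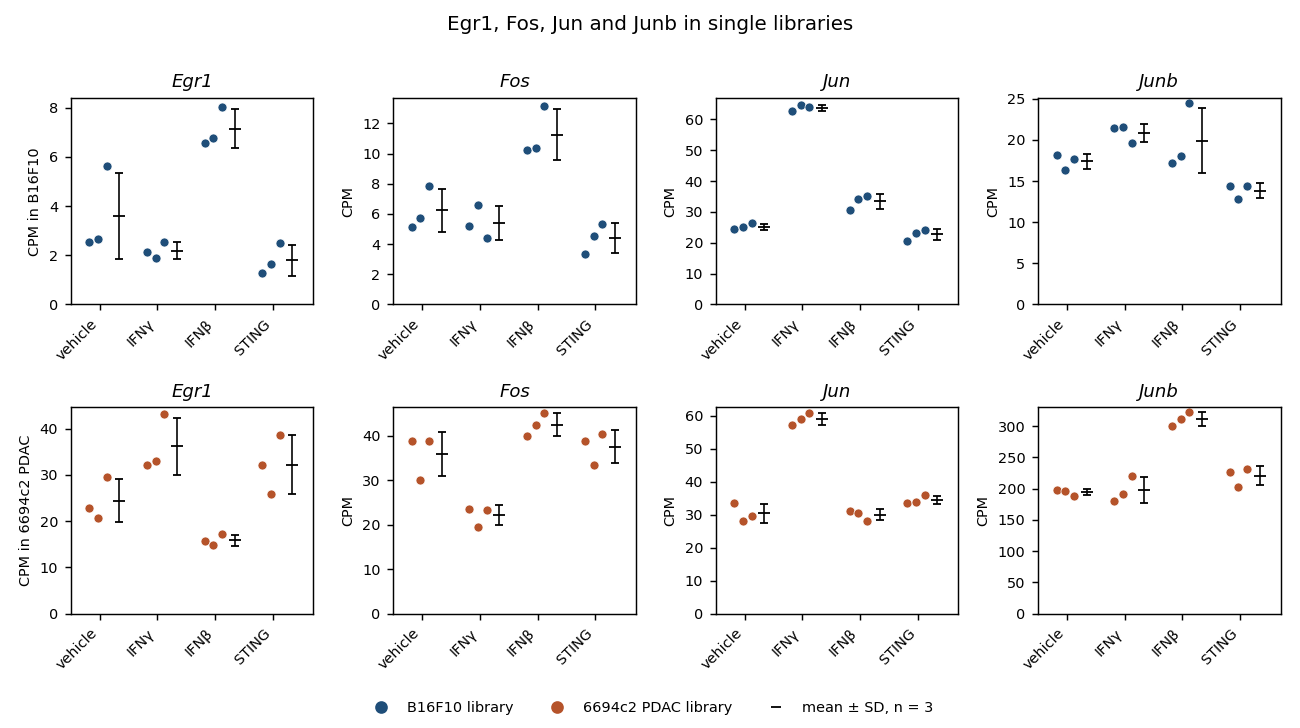
Levels in CPM (y axes, starting at 0 and scaled per panel) of Egr1, Fos, Jun and Junb in each of the 24 libraries, by treatment (x axes), with B16F10 in the upper row and 6694c2 PDAC cells in the lower; points are libraries in the order of replicates 1 to 3, and bars show mean ± SD (n = 3). Egr1 in B16F10 vehicle replicate 3 lies at 5.63 CPM, apart from 2.54 and 2.65 CPM in the other 2, and the 3 IFNγ libraries of Jun lie above all other libraries of their line in both rows.

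Fos, the founding partner of JUN proteins in AP-1, rose with IFNβ in both lines. In B16F10 cells it stood at 5.12, 5.74 and 7.86 CPM with vehicle and at 10.2, 10.4 and 13.2 CPM with IFNβ, an increase of 1.80-fold without overlap (log2 0.85 ± 0.13 SE, edgeR adjusted p = 1.35e-08). In 6694c2 cells the vehicle libraries were at 38.8, 30.1 and 38.7 CPM and the IFNβ libraries at 39.9, 42.5 and 45.04 CPM. The 6694c2 increase was 1.21-fold (edgeR adjusted p = 0.0301), and without vehicle replicate 2, the lowest, it was 0.17 on the log2 scale with an edgeR adjusted p of 0.316. The call was also lost without IFNβ replicate 2 (edgeR adjusted p = 0.0604) or replicate 3 (edgeR adjusted p = 0.102), and in DESeq2 (adjusted p = 0.0594). Fos in 6694c2 cells stood at 23.6, 19.5 and 23.4 CPM with IFNγ, below every vehicle library, and fell by 0.67 ± 0.10 on the log2 scale (edgeR adjusted p = 1.04e-06). In B16F10 cells with IFNγ it stood at 5.20, 6.61 and 4.40 CPM, overlapping vehicle, and was not called.

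With STING agonist, Fos in B16F10 cells stood at 3.35, 4.55 and 5.31 CPM, with replicate 3 above the lowest vehicle library. It was called lower (log2 −0.51 ± 0.15 SE, edgeR adjusted p = 0.0352). The call was lost without vehicle replicate 3, with a log2 change of −0.30 and an edgeR adjusted p of 0.533, without STING agonist replicate 1, with −0.37 and 0.348, without STING agonist replicate 2, with −0.53 and 0.087, and in DESeq2, with −0.50 and 0.187. In 6694c2 cells Fos stood at 38.8, 33.3 and 40.5 CPM with STING agonist, overlapping vehicle.

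Fosl1 was measured well in 6694c2 cells but not in B16F10 cells. Fosb was low in both lines, with 33 to 143 reads per library in 6694c2 cells. Fosl1 in 6694c2 cells stood at 65.7, 63.4 and 64.9 CPM with vehicle, at 79.6, 85.3 and 86.9 CPM with IFNγ and at 89.9, 84.9 and 96.1 CPM with IFNβ. Both interferon groups lay above all vehicle libraries, with increases of 1.31-fold (edgeR adjusted p = 4.70e-05) and 1.43-fold (edgeR adjusted p = 1.86e-07). With STING agonist it stood at 70.0, 68.0 and 71.7 CPM, also above the vehicle libraries, and was not called. In B16F10 libraries Fosl1 was between 0.24 and 0.74 CPM. Its mean with STING agonist was 0.657 CPM against 0.291 CPM with vehicle, which was not called (edgeR adjusted p = 0.337). The share of PDAC genes in the STING agonist libraries, applied to the 6694c2 vehicle level of Fosl1, corresponds to 0.578 CPM. Whether Fosl1 reads in B16F10 libraries came from the other line was not tested.

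Fosb, a close relative of Fos, stood at 3.33, 1.84 and 2.99 CPM with vehicle and at 4.76, 3.21 and 4.13 CPM with IFNβ in 6694c2 cells. These groups overlapped, the change was 1.54-fold (edgeR adjusted p = 0.0398), and without vehicle replicate 2 it was 0.40 on the log2 scale with an edgeR adjusted p of 0.303. Leaving out vehicle replicate 3 (edgeR adjusted p = 0.0532) or IFNβ replicate 1 (0.195) or 3 (0.0659) also ended the call, as did DESeq2 (adjusted p = 0.0823). In B16F10 cells Fosb had 9 to 29 reads per library, from 0.478 to 1.17 CPM, and was not called with any treatment.

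Jun gave the largest called increase of the 10 genes against vehicle. In B16F10 cells it stood at 24.4, 25.0 and 26.2 CPM with vehicle and at 62.8, 64.6 and 63.9 CPM with IFNγ, an increase of 2.52-fold (log2 1.34 ± 0.08 SE, edgeR adjusted p = 1.69e-49). In 6694c2 cells it stood at 33.6, 27.96 and 29.6 CPM with vehicle and at 57.3, 59.1 and 60.9 CPM with IFNγ, an increase of 1.97-fold (log2 0.98 ± 0.08 SE, edgeR adjusted p = 5.88e-13). Both calls held under all 14 alternatives tried. With IFNβ, Jun in B16F10 cells stood at 30.7, 34.3 and 35.2 CPM, a smaller increase of 1.33-fold (edgeR adjusted p = 3.08e-06). In 6694c2 cells with IFNβ it stood at 31.3, 30.7 and 28.2 CPM, overlapping vehicle. With STING agonist its levels were 20.7, 23.3 and 24.2 CPM in B16F10 cells and 33.6, 33.8 and 35.9 CPM in 6694c2 cells, and neither change was called. The antisense gene Junos shares 232 exon bases with Jun and had at most 11 reads in any library.

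Junb was the member with the largest increase with IFNβ in 6694c2 cells. It stood at 198, 196 and 189 CPM with vehicle and at 299.7, 311 and 323 CPM with IFNβ, an increase of 1.64-fold (log2 0.72 ± 0.07 SE, edgeR adjusted p = 7.13e-11) that was called under all 14 alternatives. With IFNγ it stood at 181, 191 and 221 CPM and with STING agonist at 227, 203 and 231 CPM, neither of which was called. In B16F10 cells the levels were lower and the changes smaller. Junb stood there at 18.1, 16.4 and 17.7 CPM with vehicle, at 21.5, 21.5 and 19.6 CPM with IFNγ, at 17.2, 18.1 and 24.5 CPM with IFNβ, and at 14.3, 12.8 and 14.4 CPM with STING agonist. The increase with IFNγ (1.20-fold, edgeR adjusted p = 0.0306) and the decrease with STING agonist (log2 −0.34, edgeR adjusted p = 0.0321) showed no overlap with vehicle, yet DESeq2 did not call them (adjusted p = 0.0889 and 0.126). The IFNγ call was lost without vehicle replicate 2 or 3 or IFNγ replicate 1 or 2, with edgeR adjusted p-values of 0.0534 to 0.147, and the STING agonist call without vehicle replicate 1 or 3 or any single STING agonist library, with 0.0503 to 0.262. With IFNβ Junb was not called in B16F10 cells (log2 0.20), and it was called without IFNβ replicate 1 (0.29, edgeR adjusted p = 0.0199).

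The Prdx2 gene lies on the opposite strand and shares 173 exon bases with Junb, and the sources used here do not say whether reads were counted by strand, so reads from these bases cannot be told apart. Prdx2 encodes an antioxidant peroxiredoxin. It stood at 309.9 ± 17.4 CPM with vehicle and 356 ± 20.3 CPM with IFNβ in 6694c2 cells, and between 300.1 and 321 CPM on average in the B16F10 groups. Its part in the Junb values was not tested.

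**Figure D3:**
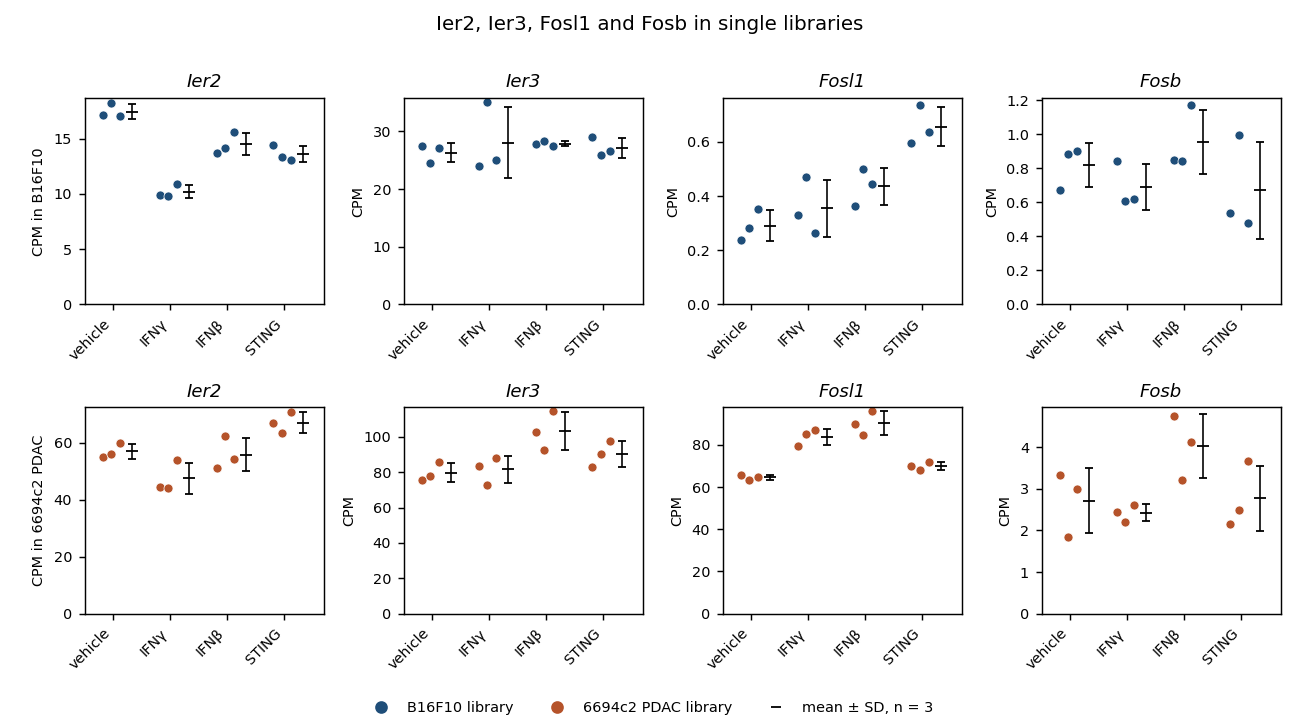
Levels in CPM (y axes, starting at 0 and scaled per panel) of Ier2, Ier3, Fosl1 and Fosb in each of the 24 libraries, by treatment (x axes), with B16F10 in the upper row and 6694c2 PDAC cells in the lower; points are libraries and bars show mean ± SD (n = 3). Ier2 in B16F10 cells is lowest with IFNγ, at 9.80 to 10.9 CPM, and Fosl1 in B16F10 cells stays under 1 CPM in every library.

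Ier2, which encodes a small nuclear protein, fell with IFNγ in B16F10 cells. Its levels there were 17.1, 18.3 and 17.1 CPM with vehicle and 9.93, 9.80 and 10.9 CPM with IFNγ, a decrease of 0.78 ± 0.11 on the log2 scale (edgeR adjusted p = 2.75e-11) that was called under all 14 alternatives. With IFNβ it stood at 13.7, 14.2 and 15.6 CPM and with STING agonist at 14.5, 13.3 and 13.1 CPM, all below the vehicle libraries. These were called with smaller changes of −0.26 (edgeR adjusted p = 0.0451) and −0.37 (edgeR adjusted p = 0.0196). The IFNβ call was lost in 7 of 14 alternatives, among them leaving out any single vehicle library or IFNβ replicate 1 or 2 (edgeR adjusted p from 0.0663 to 0.176). The STING agonist call was lost without vehicle replicate 2 or STING agonist replicate 2 or 3 (edgeR adjusted p from 0.112 to 0.14). In 6694c2 cells Ier2 stood at 54.9, 55.9 and 60.04 CPM with vehicle and at 44.6, 44.2 and 53.8 CPM with IFNγ. The groups did not overlap, the log2 change was −0.24, and the edgeR adjusted p was 0.0513, just outside the threshold. Without IFNγ replicate 3, the highest of its group, the change was −0.35 with an edgeR adjusted p of 0.00674, and without vehicle replicate 1 it was −0.26 with 0.0278.

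With STING agonist Ier2 in 6694c2 cells stood at 66.8, 63.4 and 70.9 CPM, above all vehicle libraries, and was not called. Ier3, also known as IEX-1 and involved in cell survival, was called against vehicle only with IFNβ in 6694c2 cells. It stood at 75.8, 77.7 and 85.9 CPM with vehicle and at 102, 92.8 and 115 CPM with IFNβ, an increase of 1.33-fold (edgeR adjusted p = 0.000155). In B16F10 cells 11 of 12 libraries were between 24.1 and 29.0 CPM, with IFNγ replicate 2 at 35.1 CPM, and no treatment gave a call for Ier3.

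The interferons were also compared directly, without the vehicle libraries entering the contrast. In B16F10 cells 3 of the 10 genes were higher and 1 lower with IFNβ than with IFNγ, against 14.5% of all genes called, and in 6694c2 cells 5 were higher and 2 lower, against 13.9%. Egr1 was 3.28-fold higher with IFNβ in B16F10 cells (edgeR adjusted p = 1.15e-16), and in 6694c2 cells it was lower by 1.18 ± 0.12 on the log2 scale (edgeR adjusted p = 2.44e-10). These calls held under all 14 alternatives, which included a fit of the 2 interferon groups alone and each interferon library left out in turn. Fos was higher with IFNβ in both lines, by 2.10-fold in B16F10 and 1.94-fold in 6694c2 cells (edgeR adjusted p = 1.99e-12 and 1.44e-10). Jun was lower with IFNβ in both lines, with log2 differences of −0.92 and −0.96 (edgeR adjusted p = 2.97e-28 and 6.03e-13). In 6694c2 cells Junb, Fosb and Ier3 were also higher with IFNβ, by 1.59-fold, 1.68-fold and 1.28-fold, with edgeR adjusted p-values of 4.02e-10, 0.0118 and 0.00103. Ier2 was 1.43-fold higher in B16F10 cells (edgeR adjusted p = 3.57e-05) and 1.18-fold higher in 6694c2 cells, where the groups overlapped (edgeR adjusted p = 0.0416, and 0.0657 in DESeq2). The Ier2 call in 6694c2 cells was lost without IFNγ replicate 1 or 2 or IFNβ replicate 2 (edgeR adjusted p from 0.191 to 0.315), and the Fosb call without IFNβ replicate 1 (edgeR adjusted p = 0.0804).

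Whether a treatment acted differently in the 2 lines was tested on the difference of the 2 changes over all 24 libraries. With IFNγ, 2 of the 10 genes had a higher and 1 a lower log2 change in 6694c2 than in B16F10 cells, against 9.47% of all genes called. With IFNβ 1 was higher and 3 lower, against 12.1%, and with STING agonist 3 were higher and none lower, against 2.12%. Egr1 differed in all 3, by 1.32 ± 0.30 with IFNγ (edgeR adjusted p = 0.00201), by −1.57 ± 0.26 with IFNβ (edgeR adjusted p = 2.91e-05) and by 1.42 ± 0.32 with STING agonist (edgeR adjusted p = 0.00611). Without B16F10 vehicle replicate 3 the IFNγ and STING agonist differences were 0.88 (edgeR adjusted p = 0.0611) and 0.94 (edgeR adjusted p = 0.143) and were not called. In edgeR's robust fit the STING agonist difference was not called either (1.42, adjusted p = 0.107). The IFNβ difference was called under all 20 alternatives, with values between −2.02 and −1.33.

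Among the AP-1 genes, Jun had a lower log2 change in 6694c2 than in B16F10 cells with IFNγ (difference −0.38, edgeR adjusted p = 0.0164) and with IFNβ (−0.42, edgeR adjusted p = 0.00676). The IFNγ difference of Jun was lost without B16F10 vehicle replicate 1 or 2, any single B16F10 IFNγ library or 6694c2 vehicle replicate 1 (edgeR adjusted p from 0.0536 to 0.109), and in the fit of only the groups compared (−0.31, edgeR adjusted p = 0.0639). The IFNβ difference was lost without B16F10 vehicle replicate 1 (edgeR adjusted p = 0.0519). The difference of Fos with IFNβ was −0.59 (edgeR adjusted p = 0.0297), and it was lost in 8 of 20 alternatives, namely the robust fit and leaving out B16F10 vehicle replicate 1 or 2, B16F10 IFNβ replicate 2 or 3, 6694c2 vehicle replicate 1 or 3, or 6694c2 IFNβ replicate 1 (edgeR adjusted p from 0.0509 to 0.189). Junb had a higher log2 change in 6694c2 than in B16F10 cells with IFNβ (0.49, edgeR adjusted p = 0.00568) and with STING agonist (0.52, edgeR adjusted p = 0.0187). With STING agonist its log2 changes were 0.19 in 6694c2 cells, not called, and −0.34 in B16F10 cells, called lower. The STING agonist difference of Junb was lost without B16F10 vehicle replicate 1 or 3, B16F10 STING agonist replicate 2, or 6694c2 STING agonist replicate 1 or 3 (edgeR adjusted p from 0.0508 to 0.0848). Jun was not called with STING agonist (0.33), and it was called without 6694c2 vehicle replicate 1 (0.41, edgeR adjusted p = 0.0468). Ier2 had a higher log2 change in 6694c2 cells with IFNγ (0.52, edgeR adjusted p = 0.00411) and with STING agonist (0.60, edgeR adjusted p = 0.00267), and both held under all 20 alternatives.

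The libraries of a group differed more for Egr1 than for most genes. The biological coefficient of variation is edgeR's estimate of the spread between replicates beyond counting error, drawn towards the trend of all genes at that level. It was 14.5% for Egr1 in B16F10 cells, against 10.8% on the trend. In 6694c2 cells it was 10.8% against 7.11%. This ratio of gene to trend was higher than that of 99.4% of genes in B16F10 cells and 98.1% in 6694c2 cells. For Fos it was higher than that of 97.3% and 83.4% of genes, and for Ier3 than that of 95.6% and 80.3%. For Egr2, which was close to the detection limit, these shares were 97.1% and 45.4%. For Jun the spread was 5.39% and 6.17%, below the trend in both lines, and the ratio was above that of 31.4% and 29.5% of genes. Fosb and Fosl1 in B16F10 cells had estimated spreads of 21.4% and 24.7%, which were also below the trend at their low levels. Without such moderation and with counting error included, the coefficient of variation of Egr1 CPM in B16F10 groups ran from 11.1% with IFNβ to 48.7% with vehicle.

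**Figure D4:**
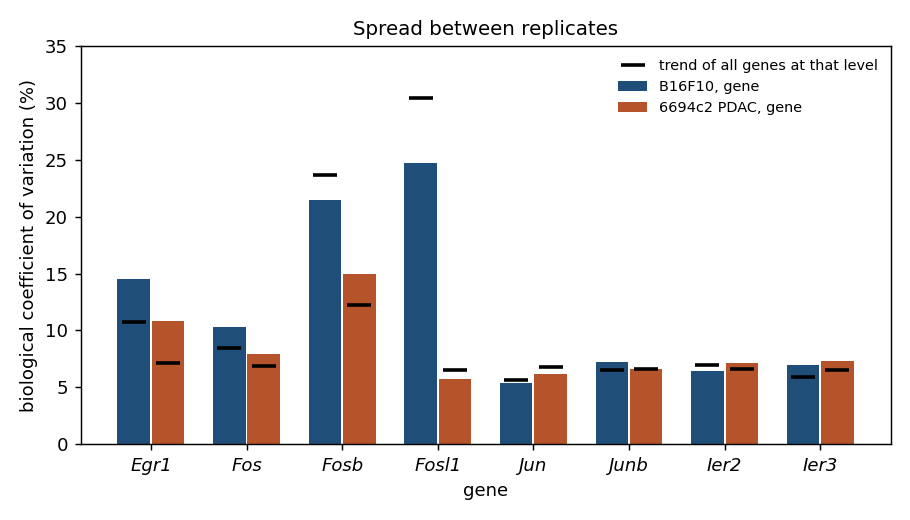
Biological coefficient of variation in percent (y axis, from 0) of 8 genes (x axis) in B16F10 (blue) and 6694c2 PDAC (orange) cells, from edgeR over the 12 libraries of each line; black marks give the trend of all genes at the same level. Egr1 lies above its mark in both lines, at 14.5% and 10.8%, and Jun lies below its marks, at 5.39% and 6.17%. Each bar is an edgeR estimate that is drawn towards the trend.

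Several genes were high in the same library. Of the 8 genes over 1 CPM in 6694c2 cells, all 8 were highest in replicate 3 of the STING agonist group, and 7 of 8 in replicate 3 of the IFNγ group, with Fos the exception. Those libraries held 30249434 and 31844655 reads, the deepest of their groups, and the CPM values are scaled for depth. In 6694c2 cells 5 of 8 were highest in replicate 1 of the vehicle group, and 5 of 8 in replicate 3 of the IFNβ group. Of the 6 genes over 1 CPM in B16F10 cells, 5 were highest in replicate 3 of the IFNβ group. The 22875591 reads of that library lay between those of the other 2 in its group. In the vehicle group 3 of 6 were highest in replicate 3, with IFNγ 4 in replicate 2 and with STING agonist 4 in replicate 3. The share of all genes highest in each of these libraries was not counted, so the counts do not set these genes apart from others.

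Among genes with a mean log2 CPM of at least 2, the pattern of Egr1 within groups was closest to that of Hes1, a transcriptional repressor of the Notch pathway (Pearson's r = 0.821 over 24 libraries, after subtracting each group's mean), followed by Kansl1l at 0.737 and Fn3krp at 0.732, among 9927 genes. For Fos the closest were Klrg2 at 0.817, Adap1 at 0.809 and Ak4 at 0.797. The closest genes are the highest of 9927 values, and how high such values would be without any link was not tested. Egr1 and Fos had an r of 0.661 with each other, Fos and Fosl1 0.652, and Fos and Jun 0.589. For Egr1, the r with the rest of the immediate early genes chosen by name ran from 0.0491 (Ier3) to 0.619 (Egr3). For Fos, the r with the remaining ones ran from −0.0303 (Egr2) to 0.569 (Egr3). Egr2 and Egr3 were close to the detection limit. With Ier2, r was 0.178 for Egr1 and −0.00276 for Fos. These values describe the 24 libraries, which share group means and depth scaling.

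Of 32 other immediate early genes tested, 11 rose and 8 fell with IFNγ in B16F10 cells, against 22.8% of all genes called. With IFNβ 14 rose and 4 fell, against 24.0%. With STING agonist 3 rose and 5 fell, against 3.46%, and DESeq2 called 5. In 6694c2 cells 16 rose and 2 fell with either interferon, against 13.5% of all genes with IFNγ and 18.2% with IFNβ. None was called there with STING agonist by edgeR or DESeq2, against 0.36% of all genes, and 4 had an unadjusted edgeR p under 0.05. Atf3, a stress-induced partner of JUN proteins, rose from 6.70 ± 0.876 to 40.9 ± 3.53 CPM with IFNγ in B16F10 cells (SD, n = 3, edgeR adjusted p = 1.82e-83) and reached 15.5 ± 1.60 CPM with IFNβ. Csrnp1, a nuclear protein, rose with both interferons in both lines, with log2 changes of 1.52 and 0.87 in B16F10 cells and of 1.22 and 1.34 in 6694c2 cells (IFNγ, then IFNβ). Zfp36, which encodes an RNA-binding protein that destabilizes AU-rich transcripts, rose from 7.58 ± 0.649 to 25.2 ± 1.85 CPM with IFNγ and 16.7 ± 1.78 CPM with IFNβ in 6694c2 cells.

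Myc moved in opposite directions with IFNβ. It fell from 31.7 ± 3.14 to 18.5 ± 1.53 CPM in B16F10 cells and rose from 120.5 ± 0.389 to 215 ± 10.3 CPM in 6694c2 cells, and the difference of the log2 changes was 1.61 ± 0.12 (edgeR adjusted p = 1.40e-13). Nr4a1, an orphan nuclear receptor, fell with IFNγ in both lines, by 1.02 on the log2 scale in B16F10 cells and by 0.48 in 6694c2 cells.

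Of the 13 AP-1 partners listed, Atf3, Fosl2, Jund and Maff are also among the other immediate early genes above, so their calls count in both lists. Among the 13, 7 rose and 1 fell with IFNγ in B16F10 cells and 7 rose and none fell in 6694c2 cells. The shares of all genes called were 22.8% and 13.5%. With IFNβ 4 rose and 3 fell in B16F10 cells, and 5 rose and 1 fell in 6694c2 cells, against 24.0% and 18.2%. Batf2, an interferon-induced member of the AP-1 superfamily, rose from 0.326 ± 0.189 to 67.1 ± 6.47 CPM with IFNγ in B16F10 cells and from 0.928 ± 0.309 to 140.8 ± 6.15 CPM in 6694c2 cells. Fosl2, the FRA-2 gene, rose with IFNγ in both lines, by 0.97 and 0.82 on the log2 scale. With STING agonist 2 rose and 2 fell in B16F10 cells, where DESeq2 called 2, against 3.46% of all genes. None of the 13 was called in 6694c2 cells by edgeR or DESeq2, against 0.36%, with 2 at an unadjusted edgeR p under 0.05.

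The 16 genes of feedback on ERK signalling and on EGR factors include dual specificity phosphatases, Sprouty and Spred inhibitors, ETV factors and the EGR corepressors Nab1 and Nab2. In B16F10 cells 3 rose and 9 fell with IFNγ, none rose and 7 fell with IFNβ, and none rose and 2 fell with STING agonist, where DESeq2 called 1. In 6694c2 cells 2 rose and 2 fell with IFNγ and 5 rose and 3 fell with IFNβ. None was called there with STING agonist by edgeR or DESeq2, with 4 at an unadjusted edgeR p under 0.05. Over all genes, 22.8%, 24.0% and 3.46% were called with IFNγ, IFNβ and STING agonist in B16F10 cells. In 6694c2 cells these shares were 13.5%, 18.2% and 0.36%. Dusp4, a nuclear ERK phosphatase, fell in B16F10 cells from 165 ± 2.01 CPM to 86.9 ± 5.31 CPM with IFNγ, 85.8 ± 5.27 CPM with IFNβ and 119 ± 1.498 CPM with STING agonist. Dusp6, a cytoplasmic ERK phosphatase, rose with IFNγ in both lines, by 0.59 and 0.85 on the log2 scale. For the difference of the changes between the lines, 7 of the 16 were higher in 6694c2 cells with IFNγ, 8 with IFNβ and 2 with STING agonist. None was lower, and the shares of all genes called in either direction were 9.47%, 12.1% and 2.12%.

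Of 19 upstream kinases and SRF or CREB factors, 5 rose and 4 fell with IFNγ and 3 rose and 6 fell with IFNβ in B16F10 cells, while 1 fell with STING agonist. In 6694c2 cells 2 rose and 1 fell with IFNγ and 5 rose and 8 fell with IFNβ. None was called there with STING agonist by edgeR or DESeq2, with 4 at an unadjusted edgeR p under 0.05. The shares of all genes called with IFNγ, IFNβ and STING agonist were 22.8%, 24.0% and 3.46% in B16F10 cells. In 6694c2 cells they were 13.5%, 18.2% and 0.36%. Map2k1, which encodes the ERK-activating kinase MEK1, rose with both interferons in both lines, and most with IFNβ in 6694c2 cells, from 164 ± 9.51 to 288 ± 15.1 CPM. Of 8 heat shock genes, which respond to handling and protein stress, 1 rose and 2 fell with IFNγ and 1 fell with IFNβ in B16F10 cells, and none was called with STING agonist by edgeR, at an unadjusted edgeR p under 0.05 or by DESeq2. In 6694c2 cells 1 rose and 1 fell with IFNγ and 2 rose and 1 fell with IFNβ. With STING agonist none was called there by edgeR or DESeq2, with 1 at an unadjusted edgeR p under 0.05. The shares of all genes given above stand beside the heat shock counts too. Hspb1, a small heat shock protein gene, fell in 6694c2 cells from 28.4 ± 2.85 to 12.4 ± 2.48 CPM with IFNγ (edgeR adjusted p = 2.40e-11) and to 19.1 ± 1.80 CPM with IFNβ (edgeR adjusted p = 0.000117). Bag3, a co-chaperone gene, rose with IFNγ in both lines, by 0.44 and 0.43 on the log2 scale.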

How the data were processed

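Whole-cell RNA of 2 mouse lines was sequenced in 24 libraries. The authors used cutadapt for adaptors, STAR for alignment and Rsubread for gene counting, and the deposited values are unnormalized counts, with 1 table per library. For these counts the sources used here do not give the genome build, annotation, strand setting or handling of multi-mapping reads. Of the counted genes, 49056 are in GENCODE M21 (GRCm38), and 91.4% of these have the same coordinates there. The 6 single-cell samples were not analysed here.

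The minimum of 10 reads over all libraries follows the study's methods. Each line was fitted over its 12 libraries, and line differences over all 24, with edgeR 4.0.16 (quasi-likelihood test, TMM, Benjamini-Hochberg adjustment over 21138 genes) in R 4.3.3. CPM values share 1 TMM scale over the 24 libraries, and RPKM divides them by the exon length in the files. The alternatives were DESeq2 1.42.0, RLE size factors, total reads without TMM, edgeR's filterByExpr minimum, no filter, a robust fit, a replicate block, a fit of only the groups compared, and each library left out in turn.

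The 10 genes and the other lists were chosen with earlier results of these data known. All 10 were described in full. From each other list, at most 3 called genes per direction and comparison with the smallest p could be named, and for Egr1 and Fos the 5 genes of the most similar pattern. All tests were two-sided.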

Additional observations from a re-analysis of the deposited data

Results flagged for a closer look

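For 10 results, the change with a treatment differed between 6694c2 and B16F10 cells by a test of the difference itself, over all 24 libraries (log2 change in 6694c2 minus that in B16F10 cells, edgeR's quasi-likelihood test). Egr1 met this with IFNγ at 1.32, with IFNβ at −1.57 and with STING agonist at 1.42. Its log2 changes were of opposite sign in the 2 lines in each case, and the IFNγ and STING agonist values rest on the high Egr1 level of B16F10 vehicle replicate 3. Jun differed by −0.38 with IFNγ and by −0.42 with IFNβ. Fos differed by −0.59 with IFNβ. Junb differed by 0.49 with IFNβ and by 0.52 with STING agonist. The share of PDAC genes in B16F10 STING agonist libraries, applied to the 6694c2 vehicle level of Junb, corresponds to 1.73 CPM, beside a measured mean of 13.9 CPM. The source of these reads was not tested. Ier2 differed by 0.52 with IFNγ and by 0.60 with STING agonist. The 3 treatments share the vehicle libraries, so these values are not independent of each other.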

How the results depend on the processing

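The count of the 10 genes called with STING agonist in B16F10 cells was 4, and it was 2 with total reads, with the filterByExpr minimum and with DESeq2. In 6694c2 cells with STING agonist it was 0, and it was 1 (Egr1) with no filter, with the replicate block and with only the groups compared. Over all genes, calls with STING agonist in B16F10 cells went from 732 to 1271 with only the groups compared. Calls with STING agonist in 6694c2 cells went from 76 to 44 with the filterByExpr minimum, 155 with no filter, 126 with the replicate block and 132 with only the groups compared. For the difference between the lines with STING agonist, they went from 449 to 793 with only the groups compared and to 743 with DESeq2. The cause was not tested.

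Leaving out each library in turn gave 2 to 4 of the 10 genes called with IFNγ, 3 to 4 with IFNβ and 1 to 3 with STING agonist in B16F10 cells, 4 to 5, 4 to 6 and 0 to 1 in 6694c2 cells, and 7 to 8 between the vehicle groups. It gave 2 to 3, 2 to 4 and 1 to 4 for the differences between the lines with IFNγ, IFNβ and STING agonist. Over all genes the ranges with STING agonist were 415 to 568 in B16F10 cells, 42 to 105 in 6694c2 cells and 321 to 455 for the difference. The median spread of the 10 genes was 13.5% (coefficient of variation), with a range of 11.1% to 14.1%.

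The replicate numbers are shared by the groups, and the sources used here do not say whether same-numbered libraries were handled together. The correlations of same-numbered libraries' deviations ran from −0.312 to 0.263. With 3 libraries per group, these correlations cannot decide whether the numbers pair the libraries. With the replicate block, the calls it changed for the 10 genes were Egr1 with STING agonist (log2 0.41, edgeR adjusted p = 0.0083) and Ier2 with IFNγ (−0.24, 0.0285), both gained in 6694c2 cells. Of the changes of the 10 genes called in the analysis or in any alternative, none changed sign, 759 values kept their side of the threshold, 83 were no longer called and 14 became called. The 64 gene and comparison pairs never called gave 70 sign changes in 963 alternative values, 31 of them in Egr2 and Egr3, and the largest changed value was 0.21 on the log2 scale in the other genes. Named genes of the other lists kept their call in 3477 alternative values and lost it in 201, and none changed sign.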
